A study of Mus musculus with 16 samples.

Results

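The change in translational efficiency on eIF6 depletion was measured on all 16 of the 16 arrays of the series. Translational efficiency is here the polysomal minus the subpolysomal log2 signal of a gene, called its ratio below, and the change is the ratio with the eIF6 shRNA minus the ratio with the scramble shRNA. AML12 cells, a non-tumourigenic mouse hepatocyte line, carried a scramble or an eIF6 shRNA on a doxycycline-inducible lentiviral vector. All 4 groups received doxycycline and then insulin for 1 h, so that no array without insulin entered the comparison. The insulin dose is given as 100 nM in one label field and as 100 mM in another. RNA of a sucrose gradient was pooled into a polysomal and a subpolysomal sample, and each was hybridized to its own one-colour array. The groups were scramble subpolysomal, scramble polysomal, eIF6 shRNA subpolysomal and eIF6 shRNA polysomal RNA, with 4 arrays each, labelled as replicates 1 to 4. The model is limited to 1 cell line, all eIF6-depleted arrays carry the same shRNA label, and the medium held serum, insulin supplement and dexamethasone in every group.

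Eukaryotic initiation factor 6 binds the large (60S) ribosomal subunit, keeps it from joining the small subunit too early, and also takes part in making 60S subunits in the nucleolus. mRNAs with many ribosomes sediment in polysomes, whereas free mRNAs and those with a single ribosome stay in lighter, subpolysomal fractions. A lower ratio of the 2 signals can therefore come from less mRNA in polysomes, from more mRNA in the subpolysomal fraction, or from unequal changes in both. The genes below are described by which of these sides moved.

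Each array held 39429 probes for 30214 gene names, and no spot was saturated. Between 20175 and 24949 probes per array were well above background, with medians of 22144 and 23966 in scramble subpolysomal and polysomal RNA and 21452 and 23497 in eIF6 shRNA cells. After a detection filter, 19364 genes were tested. The arrays lay on 4 slides, each with 1 array of every group. Precision is limited by the 4 arrays per group. The p-values measure the spread between the arrays of a group, and the fractions of a culture entered the fit as separate arrays.

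The targeted mRNA, Eif6, was lower in the polysomal arrays labelled eIF6 shRNA and was itself lower in translational efficiency, but it did not separate the subpolysomal arrays. Its log2 signal in polysomal RNA was 12.96, 12.94, 12.96 and 12.94 in scramble cells and 11.92, 11.999, 11.85 and 11.81 in eIF6 shRNA cells. In subpolysomal RNA it was 11.53, 11.55, 11.65 and 11.66 in scramble cells and 11.73, 11.49, 11.74 and 11.50 in eIF6 shRNA cells. All 4 polysomal arrays of the shRNA were thus below all 4 of the scramble, and the subpolysomal groups overlapped. The gene thus checks the shRNA label of the 8 polysomal arrays and not that of the 8 subpolysomal arrays. The polysomal signal fell 2.08-fold, and translational efficiency changed by -1.07 ± 0.11 on the log2 scale (SE, limma adjusted p = 0.000145, n = 4 arrays per group). The 3 probes of the gene on chromosome 2 gave -0.50, -1.40 and -1.30 in translational efficiency and -0.02, 0.02 and 0.04 in subpolysomal RNA.

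By the limma interaction test, 215 genes had lower and 78 genes had higher translational efficiency in eIF6-depleted cells (adjusted p under 0.05). These were 1.11% and 0.403% of all genes tested, and 1422 and 997 genes had an unadjusted p under 0.05 in the same directions. The 215 lower genes changed by between -3.99 and -0.41 (median -1.01), and the 78 higher genes by between 0.39 and 2.59 (median 1.06). Over all genes the median change was 0.02. The ratio moved by 2-fold or more in 110 lower and 44 higher genes. Within each slide the direction was the same on 4 of 4 slides for 215 of 215 lower and 77 of 78 higher genes, which is a description, since the calls were made on the same arrays. At the threshold, Rragd, Zfp40 and Mmp9 lay just inside, with adjusted p of 0.0495, 0.0495 and 0.0497, and Adamts5, Klc1 and Bach2 just outside, with 0.0503, 0.0503 and 0.0504.

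The called genes differed in their ratio in scramble cells. After quantile normalization this ratio places a gene relative to the other genes of an array, and is not the share of its mRNA in polysomes. In scramble cells 164 of the 215 lower genes (76.3%) had more normalized signal in polysomal than in subpolysomal RNA, compared with 51.8% of all genes and 11 of the 78 higher genes (14.1%). In eIF6 shRNA cells this held for 66 lower genes (30.7%) and 44 higher genes (56.4%). These shares are parts of the same ratio that made the calls and are given as a description.

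Leaving out single cultures changed the number of calls, and the culture can be named in each case. Without the scramble cultures labelled 1, 2 or 3, the lower genes numbered 49.8%, 55.8% and 62.8% of the reported 215, and without the eIF6 shRNA cultures 1 or 3, 59.5% and 49.8%. For higher genes the counts were 35 and 43 without scramble cultures 1 or 2, and 41, 48 and 40 without eIF6 shRNA cultures 1, 2 or 3. Without the scramble and the eIF6 shRNA culture of number 1, 2 or 3 together, 54, 79 and 55 genes were lower and 20, 24 and 24 higher. Without both cultures of number 4, 181 genes were lower and 114 higher. Without scramble culture 4 alone the counts were 167 and 72, and without eIF6 shRNA culture 4 alone 197 and 112. All these fits had fewer arrays than the reported one. With the polysomal and subpolysomal arrays of each shRNA and replicate number paired as a block, 102 genes were lower and 27 higher. Scaling changed the split between directions. Of all calls, 73.4% were lower with quantile normalization, 87.9% (430 lower, 59 higher) with scaling to the 75th percentile, and 93.8% (30 lower, 2 higher) with scaling to 7 spike-in probes. The spike-in scaling moved the median over all genes by -0.47 in polysomal and by -0.23 in subpolysomal RNA, relative to which its changes have to be read. Because quantile normalization gives every array the same distribution of signals, all changes are relative to the other genes of an array, and a change in the total amount of polysomal RNA does not show in them.

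The side that moved was taken from the calls in each fraction (adjusted p under 0.05). In polysomal RNA 10.7% of all genes were called lower and 11.1% higher, and in subpolysomal RNA 12.3% and 11.8%. Of the 215 lower genes, 64 fell in polysomes only, 55 rose in the subpolysomal fraction only, 81 fell in both with the larger fall in polysomes, 9 rose in both with the larger rise in the subpolysomal fraction, and 6 fell in polysomes and rose in the subpolysomal fraction. The polysomal change was the larger one in 149 of them (69.3%). Of the 78 higher genes, 29 fell in the subpolysomal fraction only, 17 rose in polysomes only, 16 rose in both, 11 fell in both, and 5 rose in polysomes and fell in the subpolysomal fraction. Here the polysomal change was the larger one in 34 (43.6%), and over all genes in 47.9%. This share depended on the processing, with 22.2% when genes had to be above background on all 16 arrays and 62.7% with 75th percentile scaling. For lower genes it was 56.8% and 60.5%.

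**Figure D1:**
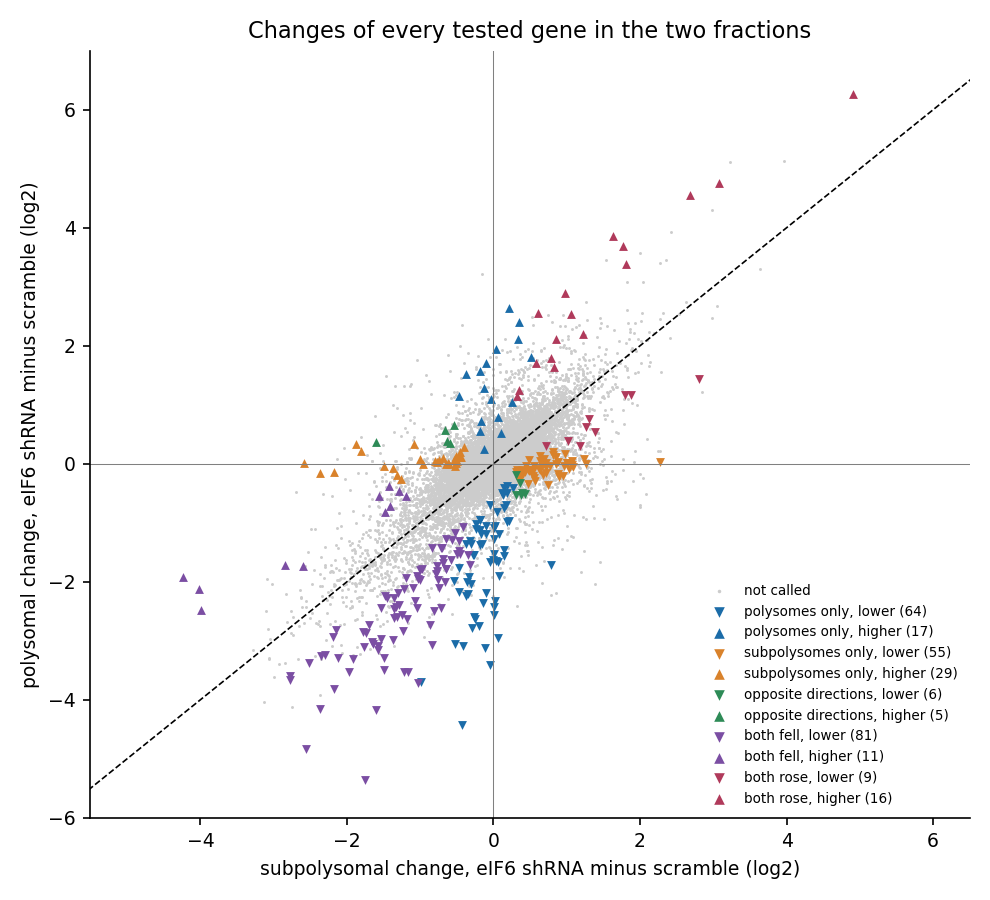
Polysomal change (vertical axis, log2) against subpolysomal change (horizontal axis, log2) of every tested gene, eIF6 shRNA minus scramble. Grey points were not called, triangles are genes called lower (pointing down) or higher (pointing up) in translational efficiency, coloured by the side that moved, and the dashed line marks equal changes; the 215 lower genes lie below it and the 78 higher genes above.

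The changes of both fractions went together across genes, with a Pearson correlation of 0.699 between the polysomal and subpolysomal change over all genes, which are not independent replicates. Most genes called in a fraction were not called in translational efficiency. Of 2789 genes called in the same direction in both fractions, 117 were called in translational efficiency. Of 1419 genes called in polysomal RNA only, 81 were, and of 1883 called in subpolysomal RNA only, 84 were. The 11 genes called in opposite directions were all called in translational efficiency.

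**Figure D2:**
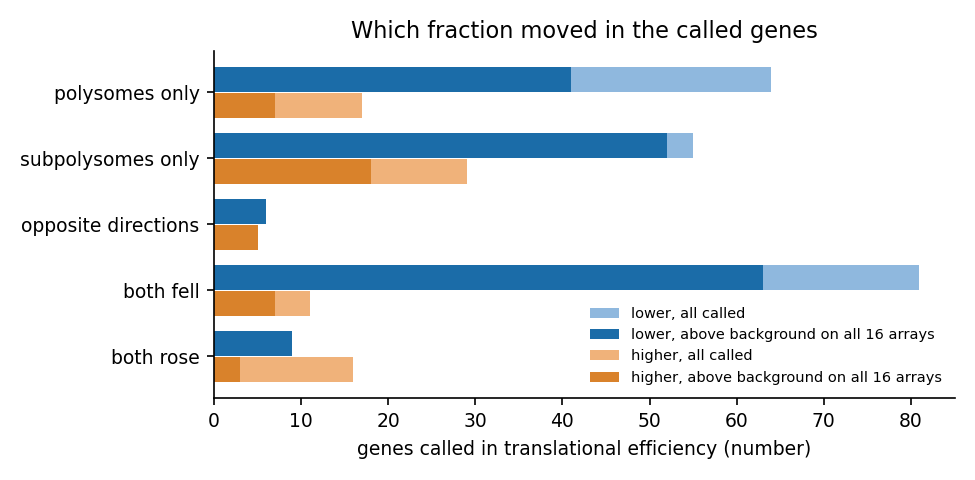
Number of genes called lower (blue) or higher (orange) in translational efficiency by the side that moved, with genes above background on all 16 arrays in the darker shade. Most lower genes fell in both fractions (81) or in polysomes only (64), and the most frequent class of higher genes fell in the subpolysomal fraction only (29).

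Genes that fell in polysomes only were not called in the subpolysomal fraction. The median polysomal change of the 64 genes was -1.54 and the median subpolysomal change -0.10. Their median ratio passed from 1.59 in scramble to -0.10 in eIF6 shRNA cells on the log2 scale. Of these genes, 41 were well above background on all 16 arrays. The other 23, among them C1qtnf5, with the lowest value of all called genes (-3.99), and Mmp9, were below background on some arrays, so that their fold changes rest on dim spots.

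Pdgfrl, which encodes a secreted protein related to the PDGF receptors, had the largest change among the 41. Its log2 signal in polysomal RNA was 10.74, 10.74, 10.42 and 11.07 in scramble cells and 7.92, 8.10, 7.87 and 8.10 in eIF6 shRNA cells. In subpolysomal RNA it was 8.67, 8.58, 8.60 and 8.49 in scramble cells and 8.50, 8.09, 8.76 and 8.18 in eIF6 shRNA cells. The polysomal groups were apart by more than 2 log2 units and the subpolysomal groups overlapped. The change in translational efficiency was -2.54 ± 0.21 (SE, limma adjusted p = 3.26e-05), and on the 4 slides it lay between -3.12 and -2.09. The normalized Pdgfrl signal was 4.46 times as high in polysomal as in subpolysomal RNA of scramble cells, and 0.766 times as high in eIF6 shRNA cells.

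Fkbp7, a peptidyl-prolyl isomerase of the endoplasmic reticulum, also fell in polysomes only. Its polysomal log2 signal was 11.37, 11.43, 11.39 and 11.23 in scramble cells and 9.34, 9.21, 9.04 and 9.04 in eIF6 shRNA cells. Its subpolysomal log2 signal was 9.21, 9.11, 9.26 and 9.17 in scramble cells and 9.23, 8.81, 9.39 and 8.95 in eIF6 shRNA cells. The polysomal groups did not overlap and the subpolysomal groups did. Translational efficiency changed by -2.10 ± 0.17 (SE, limma adjusted p = 2.22e-05).

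Other named genes of this class included those of secreted, matrix and endoplasmic reticulum proteins. Ptx3, a secreted pattern-recognition protein, changed by -2.53, Ccdc80, a matrix-associated protein, by -2.44, and Serpinf1, the anti-angiogenic serpin PEDF, by -1.98. Ccdc80 had 2 probes, which gave -3.11 (above background on 4 arrays) and -1.76 (on all 16). Ptn, the heparin-binding growth factor pleiotrophin, had a scramble ratio of 2.67 and an eIF6 shRNA ratio of 0.82 on the log2 scale. The matrix proteins Bgn (biglycan) and Sparc (osteonectin) changed by -1.71 and -1.45, and the plasma proteins Fetub and Ambp, the precursor of alpha-1-microglobulin and bikunin, by -1.86 and -1.63. The endoplasmic reticulum oxidoreductase Pdia5 changed by -1.18, and Cebpd, a leucine zipper transcription factor, by -0.78.

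Genes that fell in both fractions had the lowest median polysomal change of the side classes. This follows in part from the definition, since their polysomal fall had to exceed the subpolysomal one. Their median change in translational efficiency was -1.10, against -1.37 in the genes that fell in polysomes only. The 81 genes had a median polysomal change of -2.45 and a median subpolysomal change of -1.22, and 63 of them were above background on all 16 arrays. Their mRNA was thus lower in both fractions, and the call in translational efficiency concerns only the excess of the polysomal fall. In bulk samples, fewer cells of a type and less RNA per cell cannot be told apart.

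Dpep1, a membrane-bound dipeptidase, showed this in every culture. Its polysomal log2 signal was 8.70, 8.42, 8.29 and 8.88 in scramble cells and 4.54, 4.31, 4.46 and 4.28 in eIF6 shRNA cells. Its subpolysomal log2 signal was 7.56, 7.51, 7.41 and 7.54 in scramble cells and 5.85, 5.83, 6.399 and 5.54 in eIF6 shRNA cells. Neither fraction overlapped between the shRNAs. Polysomal signal fell 18.1-fold, subpolysomal signal fell 3.03-fold, and translational efficiency changed by -2.57 ± 0.23 (SE, limma adjusted p = 6.3e-05).

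Col1a2, the alpha-2 chain of type I collagen, was among the brightest genes. Its polysomal log2 signal was 16.41, 16.35, 16.23 and 17.08 in scramble cells and 12.63, 12.87, 12.90 and 13.56 in eIF6 shRNA cells. Its subpolysomal log2 signal was 16.02, 16.10, 16.13 and 16.01 in scramble cells and 14.48, 14.77, 14.93 and 15.21 in eIF6 shRNA cells. Both fractions were separate, and the log2 ratio of the normalized signals was 0.45 in scramble cells. Translational efficiency changed by -2.31 ± 0.30 (SE, limma adjusted p = 0.000794).

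Further named members worked in collagen assembly, calcium binding in the endoplasmic reticulum and contraction. Rcn3 and Rcn1, calcium-binding proteins of the endoplasmic reticulum, changed by -2.23 and -1.07 in translational efficiency. Lox, which cross-links collagen and elastin, changed by -2.00, and Crtap and Fkbp10, which modify and fold procollagen, by -1.31 and -1.10. Among contractile genes, Acta2 (smooth muscle actin) changed by -1.87, Myl9 (a regulatory myosin light chain) by -1.59, Tagln (transgelin) by -1.25 and Tpm2 (beta-tropomyosin) by -1.08. The Myl9 polysomal signal fell 8.93-fold, from 15.78, 15.60, 15.49 and 15.70 to 12.61, 12.64, 12.37 and 12.32, with no overlap. The secreted glycoprotein Fstl1 changed by -1.27, the interferon-induced Ifi27 by -1.74, and Ldhb, a subunit of lactate dehydrogenase, by -1.20.

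Several of these genes are also used as markers of fibroblasts and hepatic stellate cells, and that marker list moved as a whole. Of its 16 genes 14 were tested, and 13 fell in polysomal and 10 in subpolysomal RNA, with median changes of -2.71 and -1.35. Over all genes, 10.7% fell in polysomal and 12.3% in subpolysomal RNA. In translational efficiency 5 of the 14 were lower (Acta2, Col1a2, Lox, Tagln and Thy1), against 1.11% of all genes, and the median was -1.32. The log2 of its summed signal was 17.63 to 18.26 in scramble polysomal, 17.26 to 17.34 in scramble subpolysomal, 15.09 to 15.63 in eIF6 shRNA polysomal and 16.11 to 16.38 in eIF6 shRNA subpolysomal RNA. Postn was not above background on any array outside the scramble polysomal group, and Pdgfra on none of the eIF6 shRNA arrays. The part that these cells or this expression programme have in the matrix and contractile results was not tested.

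The labelled hepatocyte identity was checked against its markers. Of 16 hepatocyte markers 14 were tested, 10 or 11 were above background on all 4 arrays of each group, and none was called in translational efficiency. Hnf4a, a hepatocyte transcription factor, and Trf (transferrin) had mean log2 signals of 12.5 to 13.2 and of 14.3 to 14.8 in the 4 groups. Alb (albumin), Apoa1 and Asgr1 were not above background on any scramble subpolysomal array, and Apoa1 was above background on 2 of the 16 arrays. The macrophage, endothelial and cholangiocyte lists had 8 of 12, 4 of 12 and 7 of 10 markers tested, with no call in translational efficiency in any of them. In polysomal RNA 3 macrophage markers were called lower, and 1 endothelial, 2 cholangiocyte and 2 hepatocyte markers higher. In subpolysomal RNA 2 macrophage and 1 hepatocyte marker were lower, and 1 endothelial, 2 cholangiocyte and 1 hepatocyte marker higher. Over all genes, 10.7% were lower and 11.1% higher in polysomal RNA, and 12.3% and 11.8% in subpolysomal RNA. With an unadjusted p under 0.05, 2 macrophage and 1 cholangiocyte marker were lower and 1 hepatocyte marker was higher.

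Genes with lower translational efficiency through the subpolysomal side were not called in polysomal RNA. The 55 genes had a median polysomal change of -0.09 and a median subpolysomal change of 0.66, and 52 of them were above background on all 16 arrays. Their median ratio was -0.06 in scramble and -0.88 in eIF6 shRNA cells. They were bright, with a median log2 signal of 10.7 compared with 7.70 over all genes and 5.79 in the 64 genes that fell in polysomes only. The calls of this class depended on the scaling of the arrays, where 49 of the 55 genes remained called with 75th percentile scaling and 0 of 55 with spike-in scaling, compared with 64 and 16 of the 64 genes that fell in polysomes only. They depended on the cultures as well. With the fractions of a number paired as a block, 10 of the 55 and 36 of the 64 remained called. Without both cultures numbered 1, 2, 3 or 4, these were 0, 8, 1 and 18 of the 55 and 22, 23, 20 and 42 of the 64. The fits without cultures also had fewer arrays per group.

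Psmb1, a subunit of the 20S proteasome core, is an example with a protein of known function. Its subpolysomal log2 signal was 13.02, 13.06, 13.06 and 13.16 in scramble cells and 13.91, 13.85, 13.83 and 13.79 in eIF6 shRNA cells. Its polysomal log2 signal was 13.71, 13.68, 13.71 and 13.64 in scramble cells and 13.74, 13.70, 13.42 and 13.69 in eIF6 shRNA cells. Subpolysomal values did not overlap, and polysomal values did. The subpolysomal signal rose 1.70-fold and translational efficiency changed by -0.81 ± 0.11 (SE, limma adjusted p = 0.000927), between -1.02 and -0.66 on the 4 slides.

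Members of the functional lists in this class included genes of translation and of the secretory pathway. Rpl21 and Rps6, proteins of the large and the small ribosomal subunit, changed by -0.78 ± 0.14 and -0.48 ± 0.11 (SE), and Eif3k and Eif3m, subunits of initiation factor eIF3, by -0.50 and -0.59. Imp3, a component of the complex that processes the small subunit's RNA, changed by -0.61. Ppib, a cyclophilin of the collagen-modifying complex, changed by -0.81, the KDEL receptor Kdelr1, which returns proteins from the Golgi to the endoplasmic reticulum, by -0.69, and Ssr4, a subunit of the translocon-associated complex, by -0.60. Probes of a gene did not move equally: the 3 probes of Rpl21 gave -1.06, -0.85 and -0.44, and the 3 of Rps6 -0.73, -0.48 and -0.24. With the brightest probe alone, the adjusted p was 0.068 for Rpl21 and 0.377 for Rps6.

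More than any other class, this one was made of probes without a gene symbol. Of the 55 entries 29 (52.7%) carried only a probe, clone or transcript identifier and 6 (10.9%) were unnamed gene models, compared with 16.3% and 10.1% of all genes tested. Of the 81 genes that fell in both fractions 1 was such an identifier, and of the 64 that fell in polysomes only 5 were. The 5 with the largest change above background on all arrays were TC1654267 (-1.26), Reg3d (-1.15), NAP019752-001 (-1.15), Gm10334 (-1.13) and Defa-rs7 (-1.13). Reg3d is named for the regenerating islet-derived lectins, Defa-rs7 for the intestinal alpha-defensins, and both had mean log2 signals under 7 in every group.

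Some probes of the called genes were near-copies of probes with another name. A stretch of at least 30 bases was shared with a probe of another name in 8 of the 55 subpolysomal genes (14.5%), compared with 3.45% of all genes tested and 1 of the 64 genes that fell in polysomes only. In the 29 higher genes that fell in the subpolysomal fraction only, 4 (13.8%) shared such a stretch. The following stretches of 30 bases, read 5′ to 3′ from the array design with its mm9 positions, are shown because they bear on whether the paired probes measure separate transcripts, and the bases that differ within a pair are in capitals. Ldhb lies on the minus strand at chr6:142438770-142438829, and the probe A_55_P2086835 on the plus strand at chr19:22013003-22013062.
Ldhb: ctgatcaaataaagttagcaattgcaGCaT
A_55_P2086835: ctgatcaaataaagttagcaattgcaAAaA

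The 2 probes agreed at 56 of 59 aligned bases and gave nearly the same change in translational efficiency, -1.20 for Ldhb and -1.26 for A_55_P2086835, so that the signals of the 2 loci cannot be told apart. Their subpolysomal changes were -0.35 and -0.28, yet Ldhb was classed as falling in both fractions and A_55_P2086835 in polysomes only. A gene not called in a fraction may thus still have moved there. For the ribosomal proteins, the Rpl21 probe lies on the plus strand at chr5:147646040-147646581, NAP093566-001 on the plus strand at chr12:55529147-55529206, the Rps6 probe on the minus strand at chr4:86500748-86500807 and A_55_P2183688 on the plus strand at chr2:119013803-119013862.
Rpl21: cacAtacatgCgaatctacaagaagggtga
NAP093566-001: cacGtacatgTgaatctacaagaagggtga
Rps6: GCaacacaaaTgccgaCgtattgctctgaa
A_55_P2183688: ATaacacaaaCgccgaTgtattgctctgaa

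The pair of Rpl21 agreed at 57 of 60 and that of Rps6 at 49 of 54 aligned bases. The probes of Rpl21 and Rps6 shown here gave changes of -0.44 and -0.24, the smallest of the 3 probes of each gene. The near-copies changed by -0.62 (NAP093566-001, adjusted p = 0.072) and -0.34 (A_55_P2183688, adjusted p = 0.14) in the limma test. NAP093832-001 on the plus strand at chr16:50143960-50144019 and Gm4889 on the plus strand at chr8:35391308-35391367 were both in the class, with -0.58 and -0.46, and agreed at 45 of 46 aligned bases. The probe of Gm4889 shown here gave -0.63, and its other probe -0.29.
NAP093832-001: accaaagcccaaggttcaaaccaaggcagG
Gm4889: accaaagcccaaggttcaaaccaaggcagA

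The remaining lower genes moved on both sides. The 6 genes that fell in polysomes and rose in the subpolysomal fraction were led by Mogat2, an acyltransferase of triglyceride synthesis, with a change of -0.95 ± 0.12 (SE, limma adjusted p = 0.000602). Its polysomal log2 signal was 8.27, 8.20, 8.26 and 8.29 in scramble cells and 7.73, 7.70, 7.79 and 7.73 in eIF6 shRNA cells. Its subpolysomal log2 signal was 7.2005, 7.41, 7.14 and 7.12 in scramble cells and 7.61, 7.602, 7.86 and 7.54 in eIF6 shRNA cells. No group of one shRNA overlapped with that of the other in either fraction. Adra2a, an adrenergic receptor, Lcn2, the siderophore-binding lipocalin, Blvrb, a biliverdin reductase, and Hsd17b10, a mitochondrial dehydrogenase, changed by -0.90, -0.89, -0.83 and -0.68. The 9 genes that rose in both fractions had median changes of 0.63 in polysomal and 1.31 in subpolysomal RNA, and among them was Nsa2, a factor of 60S assembly, with -0.42. The 6 probes of Nsa2 gave between -0.63 and -0.05.

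**Figure D3:**
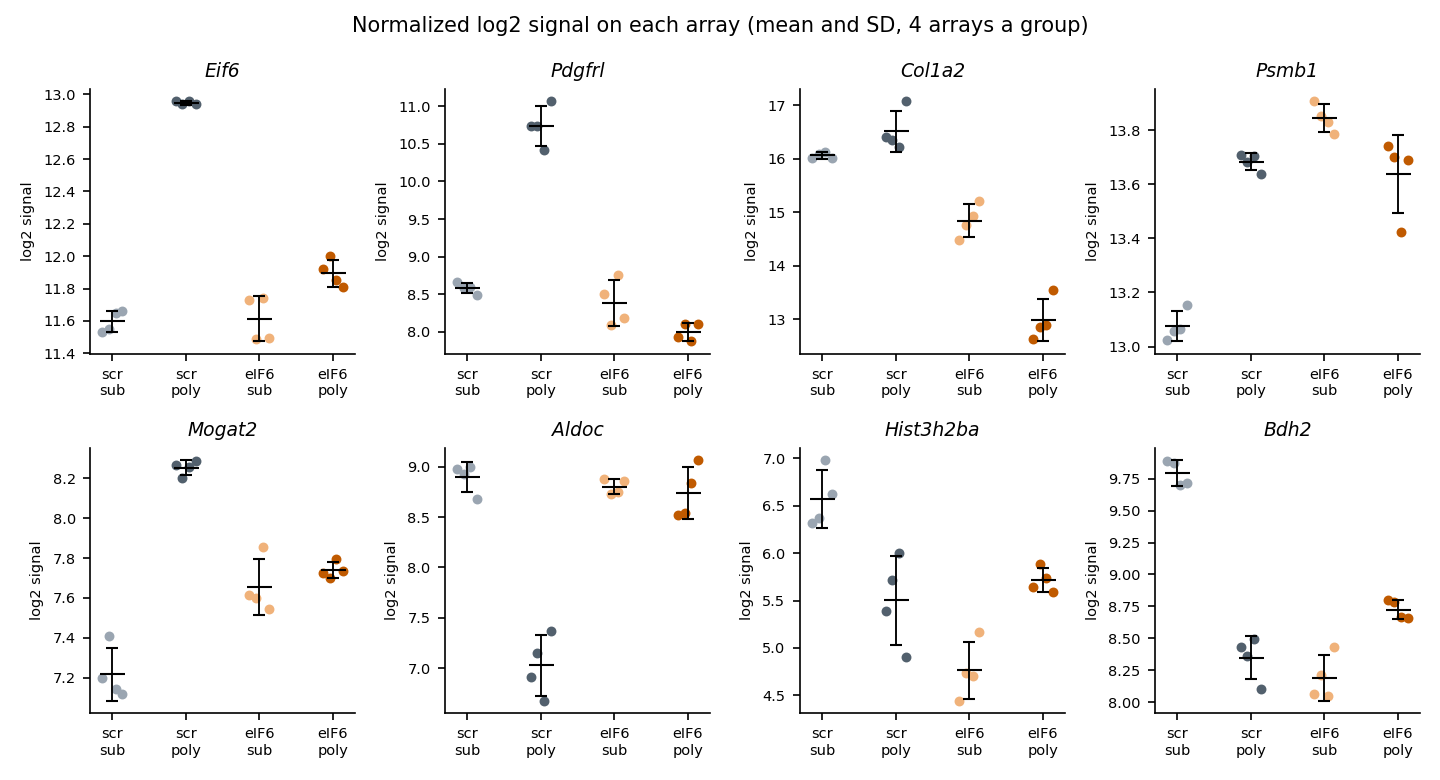
Normalized log2 signal of 8 genes on each of the 16 arrays (points), with the mean and SD of 4 arrays per group (black), for scramble and eIF6 shRNA cells in subpolysomal and polysomal RNA; each panel has its own vertical range. Pdgfrl fell in polysomal RNA only, Col1a2 in both, Psmb1 rose in subpolysomal RNA only, Mogat2 and Bdh2 moved in opposite directions, Aldoc rose in polysomal RNA only and Hist3h2ba fell in subpolysomal RNA only.

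Genes with higher translational efficiency were dimmer, with a median log2 signal of 5.04, and 40 of the 78 were above background on all 16 arrays. The 29 genes that fell in the subpolysomal fraction only had a median subpolysomal change of -0.74 and a median polysomal change of 0.05. With 75th percentile scaling 13 of the 29 remained called, and with spike-in scaling 0 of the 78 higher genes did. Hist3h2ba, a histone H2B gene, had subpolysomal log2 signals of 6.31, 6.36, 6.98 and 6.63 in scramble cells and 4.44, 4.74, 4.70 and 5.16 in eIF6 shRNA cells. Its polysomal log2 signals were 5.39, 5.72, 5.999 and 4.91 in scramble cells and 5.64, 5.88, 5.74 and 5.59 in eIF6 shRNA cells. The subpolysomal groups were apart and the polysomal groups overlapped, and translational efficiency changed by 2.02 ± 0.31 (SE, limma adjusted p = 0.00311).

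Several members of this class had low ratios, relative to the other genes, in both cell populations. Gla, the lysosomal alpha-galactosidase, had a log2 ratio of -4.16 in scramble and -3.55 in eIF6 shRNA cells, with a change of 0.61. Gm10631, a gene model without a known product, had -4.85 and -4.05, with 0.80. The zinc finger genes Zfp658 and Zfp408 had scramble ratios of -3.01 and -2.85 and changes of 0.65 and 0.49. The change of Zfp408 was 0.22 with 75th percentile scaling (limma adjusted p = 0.54). The linker histone gene Hist1h1c changed by 0.80, with a subpolysomal change of -0.74.

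The 17 genes that rose in polysomes only had a median polysomal change of 1.29, and 7 of them were above background on all arrays. Aldoc, an aldolase of glycolysis, had polysomal log2 signals of 6.91, 7.15, 6.68 and 7.37 in scramble cells and 8.52, 8.54, 8.84 and 9.06 in eIF6 shRNA cells. Its subpolysomal log2 signals were 8.98, 8.93, 9.001 and 8.68 in scramble cells and 8.88, 8.73, 8.75 and 8.85 in eIF6 shRNA cells. The polysomal groups did not overlap, and the subpolysomal groups did. The polysomal signal rose 3.27-fold and translational efficiency changed by 1.81 ± 0.21 (SE, limma adjusted p = 0.000389). Hist1h2be changed by 0.90, the secreted ligand Wnt10a by 0.79 and the orphan nuclear receptor Esrrb by 0.74. With 75th percentile scaling Wnt10a changed by 0.21 (limma adjusted p = 0.726).

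In 5 genes the polysomal signal rose while the subpolysomal signal fell. Bdh2, a cytosolic hydroxybutyrate dehydrogenase, had the smallest p-value of the genes above background on all 16 arrays (limma adjusted p = 1.61e-05). Over all genes only Serpina3n, above background on 2 arrays, had a smaller one (limma adjusted p = 1.89e-07). Bdh2 had subpolysomal log2 signals of 9.89, 9.87, 9.70 and 9.72 in scramble cells and 8.07, 8.21, 8.05 and 8.43 in eIF6 shRNA cells. Its polysomal log2 signal was 8.43, 8.36, 8.50 and 8.11 against 8.80, 8.78, 8.66 and 8.66. No groups overlapped in either fraction, and the change of 1.98 ± 0.15 (SE) came mostly from the subpolysomal side, which fell 3.04-fold while the polysomal signal rose 1.30-fold. Pde4c, a cAMP phosphodiesterase, rose in ratio from -3.91 to -2.71, and the histone genes Hist2h3c2 and Hist2h2be changed by 1.25 and 0.95. Prdm2, a zinc finger methyltransferase, changed by 1.01 over 2 probes that gave 0.35 (above background on 16 arrays) and 1.68 (on 2 arrays). With the brightest probe its change was 0.35 (limma adjusted p = 0.461).

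Among the genes that moved the same way in both fractions, 16 rose in both with the larger rise in polysomes, of which 3 were above background on all arrays. The 11 that fell in both, with the larger fall in the subpolysomal fraction, held Fhit, a diadenosine triphosphate hydrolase, and the histone genes Hist1h2bg and Hist1h3g. Fhit fell by 1.73 in polysomal and by 2.60 in subpolysomal RNA on the log2 scale, with values of 6.20 to 6.63 against 7.91 to 8.33 and of 5.602 to 5.81 against 8.24 to 8.43. Its higher translational efficiency (0.87) thus stood on a loss in both fractions. With 75th percentile scaling it was 0.53 (limma adjusted p = 0.187).

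The called genes were then read by function over 39 lists of genes. The 4 matrix lists had 15 of 186 tested genes lower (8.06%, against 1.11% of all genes) and 0 higher, with a median change of -0.25. Of the 15 genes 10 fell in both fractions, 4 in polysomes only, and 1, Ppib, was called in the subpolysomal fraction only. Ppib changed by 0.47 in subpolysomal and by -0.34 in polysomal RNA, so that both sides contributed. Genes for collagen modification and cross-linking had the lowest median (-0.38, with 5 of 28 lower: Crtap, Fkbp10, Leprel2, Lox and Ppib). Matrix glycoproteins and proteoglycans followed with -0.28 and 5 of 76 lower (Bgn, Ltbp2, Mfap5, Pxdn and Sparc). The collagen chains themselves had 2 of 30 lower, Col1a2 and Col6a3, and a median of -0.08. Even so, 15 of the 30 fell in polysomal and 14 in subpolysomal RNA, against 10.7% and 12.3% of all genes. Among matrix proteinases and inhibitors 3 of 54 were lower (Mmp17, Mmp23 and Mmp9), of which Mmp9 was above background on only 2 arrays.

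Contractile and cytoskeletal genes had 7 of 55 lower (12.7%, against 1.11% of all genes) and 0 higher. Their median was 0.01, close to that of all genes. Of the 7, Acta2, Actg2, Myl9, Tagln and Tpm2 fell in both fractions, and Csrp2 and Krt23 in polysomes only. Krt23 was above background on only 3 arrays. Genes of endoplasmic reticulum translocation and folding had 5 of 81 lower (6.17%) and a median of -0.06. They were split over 3 sides, with Rcn1 and Rcn3 falling in both fractions, Fkbp7 and Pdia5 in polysomes only and Ssr4 rising in the subpolysomal fraction. Hepatocyte plasma proteins had 4 of 51 lower (7.84%), which were Ambp, Fetub, Serpinf1 and Lcn2. Of this list 1 gene, Serpina3n, was higher (1.96%, against 0.403% of all genes), and the median was -0.19.

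The lists of the translation machinery had 6 of 336 genes lower (1.79%, close to the 1.11% of all genes) and 0 higher. None of the 6 fell in polysomes only or in both fractions. Of the cytosolic ribosomal proteins 2 of 83 were lower, Rpl21 and Rps6, and the median was -0.17, beside a median polysomal change of 0.01 and a median subpolysomal change of 0.16. In subpolysomal RNA 28 of the 83 were called higher and 2 lower, and in polysomal RNA 0 higher and 1 lower. Over all genes, 11.8% were called higher and 12.3% lower in subpolysomal RNA, and 11.1% and 10.7% in polysomal RNA. Translation factors, Eif6 left out, had 2 of 59 lower, ribosome biogenesis factors 2 of 97, and mitochondrial ribosomal proteins and aminoacyl-tRNA synthetases 0 of 76 and 0 of 21. Proteasome subunits had a median of -0.19 and 2 of 44 lower, Psmb1 through the subpolysomal side and the interferon-induced Psmb8 with a fall in both fractions.

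Histone and zinc finger genes stood at the other end of the list medians. Of the replication-dependent histones 9 of 47 were higher (19.1%, against 0.403% of all genes) and 0 lower, with a median of 0.48. Their median subpolysomal change was -0.69 and their median polysomal change -0.16, and 34 of the 47 fell in subpolysomal RNA against 5 in polysomal RNA. Over all genes, 12.3% fell in subpolysomal and 10.7% in polysomal RNA. The 9 histone calls were spread over the sides, 4 with a subpolysomal fall only, 2 with a fall in both, 2 in opposite directions and 1 with a polysomal rise only. The Zfp genes had 4 of 318 higher and 0 lower, a median of 0.20, and 69 of 318 with a subpolysomal fall. Immediate early genes had a median of 0.16 with no call among 49 genes (unadjusted p under 0.05 in 1 lower and 8 higher), and nuclear receptors a median of 0.16 with 1 of 41 called.

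In the lists of glycolysis, mitochondrial and lipid metabolism together 1 of 260 genes was lower (Ldhb, 0.385% against 1.11% of all genes). In these lists 2 genes were higher (Aldoc and Bdh2, 0.769% against 0.403%), and the median was 0.00. Ldhb and Aldoc were both members of the glycolysis list (23 genes). Bdh2 belonged to the list of fatty acid oxidation and citrate cycle (56 genes). Fatty acid and triglyceride synthesis (29 genes), cholesterol synthesis (28 genes), oxidative phosphorylation (84 genes) and cytochrome P450 and conjugation enzymes (98 genes) had no call in translational efficiency by limma. Of the 98 cytochrome P450 and conjugation genes, however, 32 were higher in polysomal and 36 in subpolysomal RNA, against 11.1% and 11.8% of all genes. With an unadjusted p under 0.05 there were 0 lower and 3 higher, 3 and 1, 10 and 9, and 13 lower and 7 higher genes in these 4 lists, in that order. Over all 19364 genes tested, 1422 were lower and 997 higher at that threshold. Interferon-response genes had 3 of 50 lower (6%), Ifi27, Isg15 and Psmb8, which all fell in both fractions, and 1 higher, Gbp6 (2%). Growth factors and their binding proteins had 5 of 84 lower (5.95%) and 1 higher (1.19%). Solute carriers had 5 of 190 lower (2.63%) and 1 higher (0.526%). The shares over all genes were 1.11% lower and 0.403% higher. Of the lower growth factor genes, Angpt4 and Fgf16 were above background on only 4 and 3 arrays. Mitochondrial solute carriers, heat shock proteins, splicing factors, RNA helicases, integrins and cadherins, chemokines and cytokines, and homeobox and forkhead factors had none. Over the 14 lists without a call, which held 825 different genes, 59 were lower and 46 higher at an unadjusted p under 0.05. These shares were near those over all genes. Unnamed Gm and Rik gene models had 9 of 1953 lower (0.461%) and 13 higher (0.666%).

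**Figure D4:**
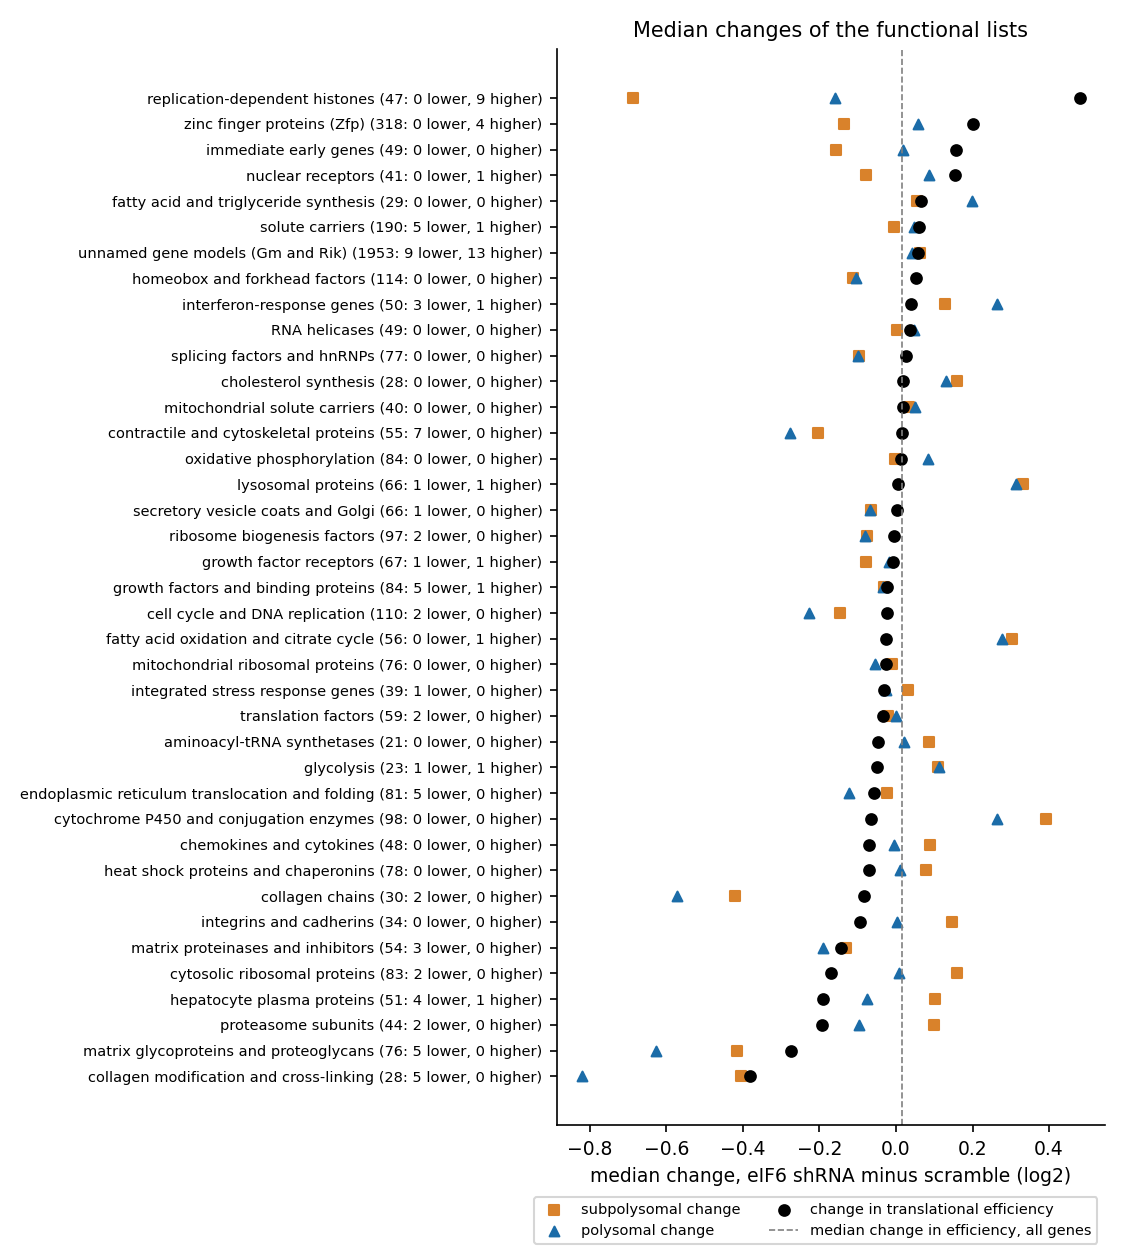
Median change in translational efficiency (black circles), in polysomal RNA (blue triangles) and in subpolysomal RNA (orange squares) of each functional list, on the log2 scale, eIF6 shRNA minus scramble, with the number of genes tested and called in brackets. Histones had the highest median change in translational efficiency (0.48) with a median subpolysomal change of -0.69, and collagen modification genes the lowest (-0.38); the dashed line is the median of all genes (0.02).

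Base composition of the probes moved with the change in translational efficiency. The median change over all genes passed from 0.09 with probes of up to 40% G and C, through -0.02, -0.04 and -0.09, to -0.17 with probes of over 55%. The lower genes had a median probe GC content of 45% and the higher genes of 40%, against 43.3% over all genes. When each GC bin was centred on its median, 201 genes were lower and 87 higher, and 38 of the 55 genes with a subpolysomal rise, 55 of the 64 with a polysomal fall and 72 of the 81 with a fall in both remained called. The part of base composition in single genes was not tested further.

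**Figure D5:**
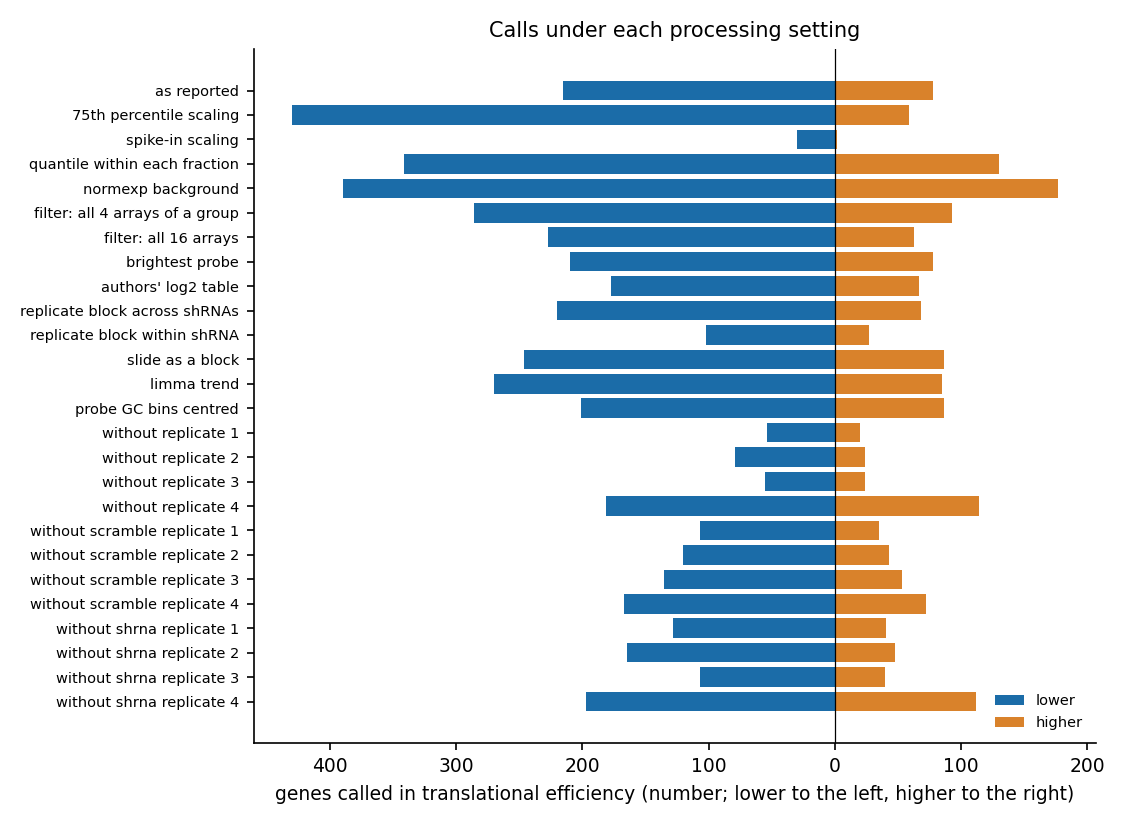
Number of genes called lower (blue, to the left) and higher (orange, to the right) in translational efficiency as reported (215 and 78) and under each other processing setting. Spike-in scaling gave the fewest calls (30 and 2), scaling to the 75th percentile the most lower calls (430) and the normexp background the most higher calls (177).

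Some calls were common to all ways of processing other than the detection filters and the leaving out of cultures. These were 13 genes, all lower, of which Pdgfrl, Ptx3 and Dpep1 were above background on all 16 arrays. The spike-in scaling was among these ways, with 30 lower and 2 higher calls. It kept 0 of the 78 reported higher genes, so that no higher gene could be common to all. Pdgfrl and Dpep1 were called under 25 of 25 alternatives, the cultures left out included, and Eif6, Fkbp7, Serpinf1, Col1a2, Rcn3, Lox, Acta2, Myl9, Tagln, Tpm2, Mogat2, Aldoc and Bdh2 under 24 of 25, the exception being the spike-in scaling. Psmb1 was called under 23 of 25, Kdelr1 and Rpl21 under 16, and Eif3m, Imp3, Ssr4 and Gm10631 under 13. By contrast Hist1h3g and Leprel2 were called under 12 of 25, Eif3k and Ppib under 11, and Esrrb and Isg15 under 10. Rps6 and Ltbp2 were called under 9 and Gla under 8. Among other listed genes, Cebpd and Col6a3 were called under 15 of 25, and Mmp9 under 7 of the 23 in which it was tested. None of the 119 named or listed genes that were recomputed under the alternatives changed direction.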

How the data were processed

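Polysomal and subpolysomal RNA of AML12 cells was measured on one-colour arrays. The authors deposited, per the file headers from Feature Extraction 10.7.3.1 (the labels' processing notes give Agilent Feature Extraction 10.7.7.1), background-corrected intensity values that were not normalized between arrays, and a log2 table quantile normalized over all arrays. Its columns correlated with the scanner intensities at 0.995 to 1.000.

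Spots marked uneven or outlying were left out, and repeated probes were averaged. Probes had to be well above background on 2 or more arrays of some group (25259 of 39429 probes). After quantile normalization of the log2 intensities, a gene's value was the mean of its kept probes, and 14632 genes had 1 probe. limma 3.58.1 (R 4.3.3, data.table version 1.17.8) was fitted with 4 group means, with Benjamini-Hochberg adjustment across the 19364 genes and a threshold of 0.05. Plots used matplotlib 3.10.9 (Python 3.11.15). The procedure was tested on simulated data. The study's correction for fewer polysomes in eIF6 shRNA cells was not applied.

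Named genes were Eif6, the 5 largest changes per direction and side class among called genes above background on all arrays whose culture ratios did not overlap, and called members of the lists. Members and lists were chosen with earlier results of these data known. Calls at the threshold, C1qtnf5 and genes in the hepatocyte and fibroblast marker lists were named outside this rule after their values were seen. Gene names and coordinates (mm9) are those of the array design. A check of bases at the transcript start is void, since 12167 of 19364 genes (62.8%) matched a promoter entry. Alternatives were 75th percentile and spike-in scaling, normalization within each fraction, normexp background (offset 50), stricter filters, the brightest probe, the authors' log2 table, slide and replicate blocks, a mean-variance trend, each culture left out, both cultures of a number left out, and, chosen after seeing the data, centring by probe GC content.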

Additional observations from a re-analysis of the deposited data

Results flagged for a closer look

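Of 168 groups of 4 arrays tested for a single array apart from the other 3 by Dixon's criterion, 5 were found, and chance gives about 1 in 20. The log2 signal of Ccdc80 was 6.655 in the eIF6 shRNA subpolysomal array of replicate 4, against 4.538 to 4.643 on the others. For Ptx3 the scramble subpolysomal array of replicate 4 gave 7.877, against 8.526 to 8.544. For Adra2a the scramble subpolysomal array of replicate 2 gave 6.173, against 6.391 to 6.435. For Wnt10a the eIF6 shRNA polysomal array of replicate 4 gave 16.23, against 16.5 to 16.54. The scramble polysomal array of replicate 2 had 22570 probes above background, against 23869 to 24067. Without the eIF6 shRNA culture 4, Ccdc80 changed by -1.96 in translational efficiency (limma adjusted p = 0.00353).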

How the results depend on the processing

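The reported counts were 215 lower and 78 higher genes, with the polysomal side larger in 69.3% and 43.6%. The 75th percentile scaling gave 430 lower genes (60.5% polysomal) and 62.7% polysomal among the higher. Spike-in scaling gave 30 lower (96.7%) and 2 higher (100%). Normalization within each fraction gave 341 and 130, and normexp 390 (58.7%) and 177. The filter on all 16 arrays gave shares of 56.8% and 22.2%, and the mean-variance trend 58.9% and 30.6%. Over the cultures left out, singly or the scramble and eIF6 shRNA cultures of a number together, lower genes numbered 54 to 197 (74.0% to 96.3% polysomal) and higher genes 20 to 114 (41.1% to 55.8%). The cause of these differences was not tested.

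Arrays with the same shRNA and replicate number had correlations of their deviations of -0.157 to 0.0296, none over 0.1 in 8 pairs. Of all 24 pairs of arrays with the same number, 3 were over 0.1 (highest 0.412), and of 24 pairs on the same slide 14. The deviations thus give no sign of pairing by number, but the titles give both fractions of a culture the same number, so the block within each shRNA is also printed beside the counts. With the replicate number as a block within each shRNA, 102 genes were lower (83.3%) and 27 higher (55.6%); with the replicate block across shRNAs, 220 and 68. The slide as a block gave 246 and 87, and the authors' own log2 values gave 177 and 67.

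Of 119 named or listed genes none reversed; 8 remained called with spike-in scaling and 99 with 75th percentile scaling. A description of hydrophobic N-termini, set beforehand, was not run, as protein sequences were not used here. Genes below background on some arrays have only bounds.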
